A study of Caenorhabditis elegans with 12 samples.

Results

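The genes of oxidative phosphorylation were examined in sorted cells of the proximal somatic gonad (PSG) of *C. elegans*. The set was chosen by function: all protein-coding genes of the mitochondrial chromosome, of which there were 12, and 29 listed nuclear genes, of which 23 were found by name in the count table. These 35 genes stood among 46687 genes in the table, 20528 of them protein-coding. The other 6 listed names were absent as gene names and were matched through RefSeq to sequence names. They are the cytochrome c oxidase genes *cox-4* (W09C5.8), *cox-5A* (Y37D8A.14), *cox-5B* (F26E4.9), *cox-6A* (F54D8.2) and *cox-6B* (Y71H2AM.5), and *atp-1* (H28O16.1), and they are described apart as the RefSeq-matched subunits. The 23 nuclear genes therefore held no subunit of complex IV. Gene IDs and positions are those of the count table (WBcel235), and the mitochondrial genes carry their RefSeq symbols.

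Oxidative phosphorylation is carried out by complexes I to V of the inner mitochondrial membrane. Complexes I and II pass electrons to ubiquinone, complex III passes them on to cytochrome c and complex IV to oxygen, while ATP synthase, complex V, uses the resulting proton gradient to make ATP. Complexes I, III, IV and V are built from subunits of both genomes, and complex II from nuclear subunits only. The mitochondrial genes are transcribed inside the organelle as long precursors, whereas the nuclear subunit genes are transcribed in the nucleus.

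All animals carried the *daf-2* reduction-of-function allele *e1370*, here *daf-2(rf)*, and a single-copy *Pfos-1a::gfp* transgene whose promoter marks the PSG. The compared strains were *daf-2(rf)*, in which DAF-16/FOXO is active, and *daf-16(0); daf-2(rf)*, which also carries the *daf-16* null allele *mu86* and is called the double mutant. GFP+ cells were sorted from pools of dissociated worms on day 1 (D1) or day 7 (D7) of adulthood. Libraries for sequencing were prepared from total RNA of 3 biological replicates per strain and day, 12 libraries in all. There was no wild-type group, and in sorted bulk cells fewer cells of a type and less RNA per cell cannot be told apart.

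The libraries held 6183054 to 16407304 reads on genes, and 1 read was worth 0.0249 to 0.373 CPM, the read count scaled to library size with TMM factors over all libraries, which ran from 0.385 to 3.22. Levels below are in CPM on this scale, and CPM per kb is used where genes are compared with each other. Replicates of a group differed far beyond counting noise, as chi-square divided by its degrees of freedom was 47.9 or more in each of the 12 replicate pairs. On D1 *daf-16* lay at 35.0 to 41.7 CPM in *daf-2(rf)* and at 4.94 to 18.6 CPM in the double mutant. On D7 it lay at 13.3 to 43.4 CPM and 6.23 to 10.3 CPM. The strains did not overlap on either day, though *daf-16* was called between them on neither. Of the 6 PSG markers, *fos-1*, *fkh-6* and *fln-1* were found in every library, with at least 385, 1708 and 832 reads. *egl-43* had at most 6 reads, and *cog-1* and *nhr-6* were low in part of the libraries.

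The library that stood apart was double mutant D1 replicate 1, which had the fewest reads. It held 1695 reads on the 12 mitochondrial genes, 0.0274% of its reads, against 0.123% to 1.29% in the other libraries. It also had the highest summed level of the nuclear genes, 2271 CPM against 625 to 1431 CPM elsewhere. The medians of both genomes in the fits that hold it, and the differences between them, are also given without it.

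Transcripts of the mitochondrial genes were more abundant than those of the nuclear genes in 11 of the 12 libraries, and both genomes differed in how they varied. The summed mitochondrial level was 3388, 14399 and 4190.4 CPM in D1 libraries of *daf-2(rf)* and 632, 7817 and 3209.6 in those of the double mutant, and on D7 3749, 2378 and 5932 (*daf-2(rf)*) and 5691, 4049.7 and 9145 (double mutant). The widest spread within a group was that of the double mutant on D1, from 632 to 7817 CPM, and the groups overlapped. The summed nuclear level was 1368, 1209 and 1268 CPM in D1 libraries of *daf-2(rf)* and 2271, 1431 and 1375 in those of the double mutant, and on D7 1040.1, 1139 and 898 (*daf-2(rf)*) and 923, 746 and 625 (double mutant). On this CPM scale all D1 libraries lay above all D7 libraries. On D1 the double mutant lay just above *daf-2(rf)*, the closest values being 1375 and 1368 CPM. As shares of all reads the days overlapped, at 0.0529% to 0.145% on D1 and 0.0690% to 0.367% on D7.

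**Figure D1:**
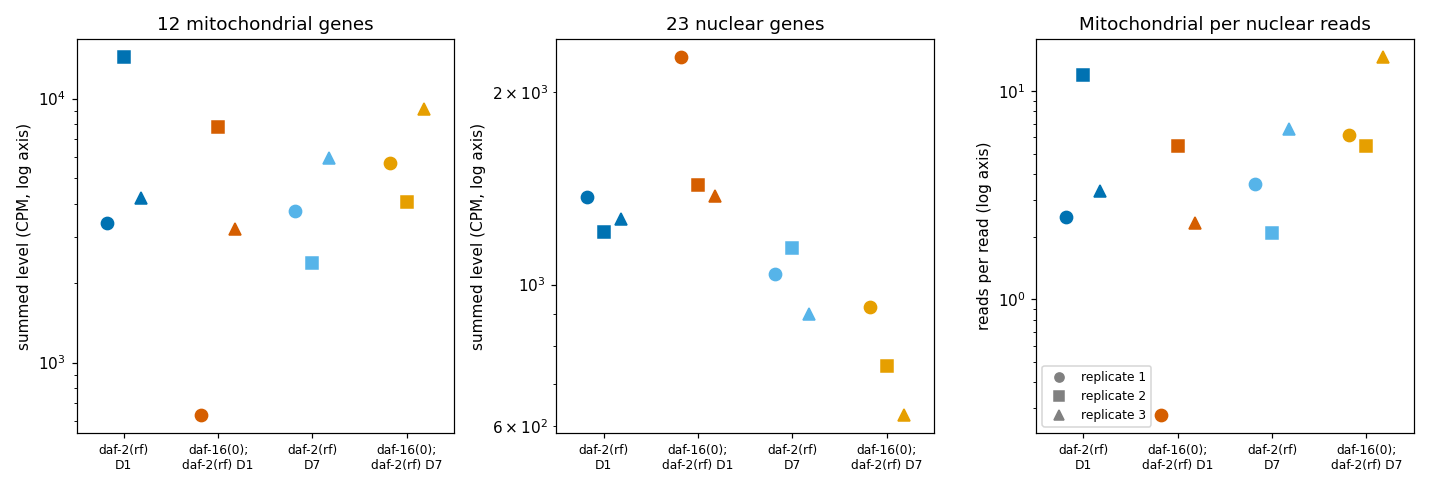
Summed level of the 12 mitochondrial genes (left) and of the 23 nuclear genes (middle), in CPM on log axes, and reads on mitochondrial genes per read on nuclear genes (right, log axis). Each symbol is 1 library, its shape the replicate number and its colour the group. Double mutant D1 replicate 1 is lowest on the left and highest in the middle, and the nuclear levels of the D7 libraries lie below those of the D1 libraries.

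Complex IV genes led the mitochondrial transcripts. *COX1* (MTCE.26, positions 7827 to 9428 of MtDNA), the catalytic subunit, had the most reads, 405264 over all libraries. Its level was 1572, 4454 and 2036 CPM in D1 libraries of *daf-2(rf)* and 175, 3328 and 1432 in those of the double mutant, and on D7 1500.2, 1048 and 2694 (*daf-2(rf)*) and 2592, 1966 and 3330.2 (double mutant). *COX2* (MTCE.31, 9649 to 10348), the subunit that receives electrons from cytochrome c, had the highest level per length, 1497 CPM per kb against 1359 for *COX1*. Its level was 529, 4141 and 833 CPM in D1 libraries of *daf-2(rf)* and 54.8, 1194 and 436 in those of the double mutant, and on D7 719, 422 and 998 (*daf-2(rf)*) and 1046, 710.3 and 1493 (double mutant). In both genes the lowest value was that of double mutant D1 replicate 1 and the highest that of *daf-2(rf)* D1 replicate 2, and *COX2* spread 75.6-fold between them. *COX3* (MTCE.23, 5678 to 6449), the remaining core subunit, varied least of the mitochondrial genes, 7.40-fold. Its level was 326, 686 and 349.5 CPM in D1 libraries of *daf-2(rf)* and 118, 872 and 485 in those of the double mutant, and on D7 445, 196 and 668 (*daf-2(rf)*) and 505, 340.1 and 579 (double mutant). The groups of all these genes overlapped.

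*ctb-1* (MTCE.21, 4504 to 5621) encodes cytochrome b, the only mitochondrial subunit of complex III. Its level was 282, 1618 and 359.8 CPM in D1 libraries of *daf-2(rf)* and 73.1, 883 and 255 in those of the double mutant, and on D7 273, 213 and 728 (*daf-2(rf)*) and 696, 384 and 1012 (double mutant). *ATP6* (MTCE.12, 2634 to 3235), a membrane subunit of ATP synthase that lines the proton path, had 191, 461 and 152 CPM in D1 libraries of *daf-2(rf)* and 56.3, 383 and 153 in those of the double mutant, and on D7 212, 112 and 191 (*daf-2(rf)*) and 146, 111 and 328 (double mutant). Both followed the order of the libraries seen for *COX1*, in that double mutant D1 replicate 1 was lowest and *daf-2(rf)* D1 replicate 2 highest.

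Complex I takes most of the mitochondrial genes. *ND1* (MTCE.11, 1763 to 2635), a membrane subunit near the ubiquinone site, had 148, 502 and 134 CPM in D1 libraries of *daf-2(rf)* and 48.5, 323 and 132 in those of the double mutant, and on D7 146, 144 and 248 (*daf-2(rf)*) and 184, 147 and 411 (double mutant). *ND2* (MTCE.16, 3389 to 4269), one of the proton-pumping membrane subunits, had 69.8, 303 and 76.6 CPM in D1 libraries of *daf-2(rf)* and 27.6, 157 and 69.2 in those of the double mutant, and on D7 70.4, 55.6 and 89.9 (*daf-2(rf)*) and 92.6, 75.2 and 314 (double mutant). *ND4* (MTCE.25, 6506 to 7808), another pumping subunit, had 103, 472 and 99.7 CPM in D1 libraries of *daf-2(rf)* and 38.0, 305 and 112 in those of the double mutant, and on D7 137, 59.0 and 70.3 (*daf-2(rf)*) and 139, 80.2 and 456 (double mutant). In these genes *daf-2(rf)* D1 replicate 2 and double mutant D7 replicate 3 stood above the other libraries of their groups. *ND5* (MTCE.35, 11691 to 13272), the most distal pumping subunit, had 117, 1398 and 123 CPM in D1 libraries of *daf-2(rf)* and 21.6, 191 and 94.8 in those of the double mutant, and on D7 220.2, 121 and 229 (*daf-2(rf)*) and 259, 228 and 1155 (double mutant). *ND5* spread 64.6-fold, with the same pair of libraries far above the rest.

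The remaining complex I genes are short membrane subunits. *ND6* (MTCE.3, 113 to 549) had 41.3, 340.4 and 23.2 CPM in D1 libraries of *daf-2(rf)* and 12.3, 164 and 35.4 in those of the double mutant, and on D7 22.7, 5.71 and 11.9 (*daf-2(rf)*) and 28.0, 5.20 and 61.2 (double mutant). *ND3* (MTCE.34, 11356 to 11691) had 6.42, 17.5 and 3.26 CPM in D1 libraries of *daf-2(rf)* and 5.22, 14.3 and 4.91 in those of the double mutant, and on D7 2.01, 1.07 and 2.64 (*daf-2(rf)*) and 3.81, 2.35 and 4.66 (double mutant), from 14 to 168 reads per library. *ND4L* (MTCE.4, 549 to 783) had the lowest level, 2.97, 4.59 and 0.854 CPM in D1 libraries of *daf-2(rf)* and 1.86, 4.22 and 0.701 in those of the double mutant, and on D7 0.785, 0.274 and 0.169 (*daf-2(rf)*) and 0.670, 0.186 and 1.11 (double mutant), from 3 to 44 reads. *ND6* and *ND3* were lower in most D7 than D1 libraries, and *ND4L* was near the counting limit in several. Neighbouring mitochondrial genes share at most 2 bases in the table's coordinates, so a read across a junction can touch both.

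The make-up of the mitochondrial reads does not depend on how libraries are scaled. *COX1* took 27.7% to 48.6% of the reads on the 12 genes in the D1 libraries and 36.4% to 48.5% in the D7 libraries. *ND3* took 0.0778% to 0.826% on D1 and 0.0446% to 0.0670% on D7, so that its share was lower in every D7 library than in every D1 library. *ND6* took 0.554% to 2.36% on D1 and 0.129% to 0.669% on D7, where the ranges overlapped slightly. *ND4L* took 0.0204% to 0.295% on D1 and 0.00285% to 0.0209% on D7, again with a slight overlap. *ND5* moved the other way in its median, from 3.19% to 5.36%, with ranges that overlapped (2.45% to 9.71% and 3.85% to 12.6%). These 4 genes were singled out after their values were seen, and the shares of the 12 genes sum to the whole, so they are not independent. Reads on the mitochondrial ribosomal RNAs numbered 36 to 319 per library, and those on the transfer RNAs 0 to 12.

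Among the nuclear genes, complex I and complex V held the highest levels per length. *nuo-3* (Y57G11C.12, chromosome IV), an accessory subunit of complex I, stood at 195 CPM per kb, with the reservation that its deposited length exceeds its deposited coordinates. Its level was 183, 209 and 178 CPM in D1 libraries of *daf-2(rf)* and 258, 179.7 and 247 in those of the double mutant, and on D7 128, 114 and 136 (*daf-2(rf)*) and 124, 118 and 124 (double mutant), and all D7 libraries lay below all D1 libraries. The lowest per length in complex I was *lpd-5* (ZK973.10, chromosome I), a subunit near its iron-sulfur clusters, with 3.45, 3.65 and 3.34 CPM in D1 libraries of *daf-2(rf)* and 11.6, 5.35 and 3.68 in those of the double mutant, and on D7 2.01, 4.71 and 3.71 (*daf-2(rf)*) and 2.27, 3.28 and 1.11 (double mutant). *atp-2* (C34E10.6, chromosome III, 5228409 to 5230544), the catalytic beta subunit of ATP synthase, stood at 189 CPM per kb and took 23.4% to 37.4% of the reads on the nuclear genes. Its level was 403, 362 and 434 CPM in D1 libraries of *daf-2(rf)* and 531, 504 and 406 in those of the double mutant, and on D7 348, 426 and 278 (*daf-2(rf)*) and 318, 214 and 179 (double mutant), highest in double mutant D1 replicate 1. The lowest per length in complex V was *hpo-18* (F32D1.2, chromosome V), the epsilon subunit, with 0 to 27 reads per library, too few for any fit. Its level was 1.78, 0.521 and 0.621 CPM in D1 libraries of *daf-2(rf)* and 3.36, 0.721 and 0 in those of the double mutant, and on D7 0.697, 0.673 and 0.253 (*daf-2(rf)*) and 0.515, 0.248 and 0.148 (double mutant).

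In complex II, *sdhb-1* (F42A8.2, chromosome II), the iron-sulfur subunit of succinate dehydrogenase, was highest with 38.8 CPM per kb. Its level was 52.1, 51.7 and 53.6 CPM in D1 libraries of *daf-2(rf)* and 76.4, 50.1 and 52.6 in those of the double mutant, and on D7 39.1, 42.7 and 41.7 (*daf-2(rf)*) and 34.5, 33.3 and 21.5 (double mutant), and in either strain all D7 libraries lay below all D1 libraries. *sdhd-1* (F33A8.5, chromosome II), a membrane anchor, was lowest per length with 5.23, 5.94 and 3.80 CPM in D1 libraries of *daf-2(rf)* and 25.0, 4.94 and 9.81 in those of the double mutant, and on D7 2.35, 5.09 and 2.48 (*daf-2(rf)*) and 4.07, 4.71 and 3.55 (double mutant). In complex III, *isp-1* (F42G8.12, chromosome IV, 8133789 to 8136057), the Rieske iron-sulfur protein, was highest per length with 96.3, 64.4 and 79.3 CPM in D1 libraries of *daf-2(rf)* and 297, 80.3 and 119 in those of the double mutant, and on D7 80.4, 104 and 67.3 (*daf-2(rf)*) and 59.3, 59.7 and 32.0 (double mutant). *cyc-1* (C54G4.8, chromosome I), the cytochrome c1 subunit, was lowest per length with 20.8, 16.2 and 17.1 CPM in D1 libraries of *daf-2(rf)* and 66.0, 25.7 and 30.5 in those of the double mutant, and on D7 15.9, 14.9 and 15.9 (*daf-2(rf)*) and 14.8, 16.8 and 10.1 (double mutant). In *sdhd-1*, *isp-1* and *cyc-1* alike, double mutant D1 replicate 1 was the highest library, for *isp-1* at 297 CPM against at most 119 CPM elsewhere.

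The other nuclear genes ran from 6.11 CPM per kb for *asg-1*, subunit g of ATP synthase, to 80.4 for *asb-2*, its subunit b. Between them lay *nuo-1*, *nuo-2*, *nuo-4*, *nuo-5*, *nuo-6* and *gas-1* of complex I, *mev-1* and *sdha-1* of complex II, *ucr-1* of complex III, and *atp-3*, *atp-4*, *atp-5* and *asg-2* of complex V. Of the RefSeq-matched subunits, *atp-1*, the alpha subunit of ATP synthase, had 187765 reads and 588 CPM per kb, while the cytochrome c oxidase genes ran from 26.6 CPM per kb for *cox-6B* to 76.6 for *cox-4*. Alpha and beta subunits are assembled in equal number, whereas the level per length of *atp-1* was above that of *atp-2* in the mean over libraries.

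The balance between the genomes within each library does not depend on scaling either. Reads on mitochondrial genes per read on nuclear genes were 2.48, 11.9 and 3.31 in D1 libraries of *daf-2(rf)* and 0.278, 5.46 and 2.33 in those of the double mutant, and on D7 3.60, 2.09 and 6.60 (*daf-2(rf)*) and 6.16, 5.43 and 14.6 (double mutant). On the log2 scale the D1 means were 2.2 ± 1.21 (SD, n = 3) for *daf-2(rf)* libraries and 0.61 ± 2.21 (SD, n = 3) for those of the double mutant. The D7 means were 1.88 ± 0.83 (SD, n = 3) and 2.98 ± 0.78 (SD, n = 3). On D1 the strains overlapped, with or without double mutant D1 replicate 1, without which the double mutant mean was 1.84. On D7 the strains overlapped too, as *daf-2(rf)* replicate 3 lay above double mutant replicates 1 and 2. No test was run on this ratio.

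Each gene was compared between strains and between days with edgeR's quasi-likelihood test, with p-values adjusted over all genes tested by the Benjamini-Hochberg procedure. Calls required an adjusted p below 0.05 together with a log2 fold change of 1 or more in either direction, with the adjusted p alone for the interaction of strain and day. No mitochondrial gene, no nuclear gene and no RefSeq-matched subunit was called in any of the 4 comparisons or in the test of the interaction. The comparisons share groups, so their results are not independent of each other.

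On D7, the median log2 fold change of *daf-2(rf)* over the double mutant was negative for the mitochondrial and positive for the nuclear genes, and no gene of either set passed the test. Of 7933 genes tested, 1.15% were called and 18.8% had an unadjusted p under 0.05. Of the mitochondrial genes, 0 of 11 tested were called (0 at an unadjusted p under 0.05, and 0 with DESeq2), and all 11 had negative log2 fold changes with a median of -0.76. Of the nuclear genes, 0 of 22 were called (3 at an unadjusted p under 0.05, and 0 with DESeq2), 19 had positive and 3 negative values, and the median was 0.49, against 0.03 over all genes tested. The mitochondrial gene with the smallest p was *ND5*, with a log2 fold change of -1.52 (SE 0.67, edgeR adjusted p = 0.267). Its levels of 121 to 229 CPM in *daf-2(rf)* overlapped those of 228 to 1155 CPM in the double mutant.

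The nuclear gene with the smallest p on D7 was *nuo-6* (W01A8.4, chromosome I, 7068112 to 7069188), an accessory subunit of complex I, with 5.93, 8.63 and 5.60 CPM in *daf-2(rf)* and 4.64, 3.47 and 3.33 CPM in the double mutant. All *daf-2(rf)* libraries lay above all double mutant libraries, with a log2 fold change of 0.82 (SE 0.33, edgeR adjusted p = 0.236). The strains also did not overlap at *sdhb-1*, *isp-1*, *asg-1*, *atp-3* and *atp-4*, which made 6 of 22 nuclear genes against 25.5% of all genes tested. Of these, *asg-1* had passed the filter on low counts only through *daf-2(rf)*, where it is high. By complex, the median log2 fold change was 0.42 in complex I, 0.12 in complex II, 0.43 in complex III and 0.56 in complex V, where all 7 genes tested were positive. Of the RefSeq-matched subunits, *cox-6A* (chromosome III, 5081724 to 5082951), an accessory subunit of cytochrome c oxidase, had the smallest p. It had 13.5, 13.4 and 10.5 CPM in *daf-2(rf)* and 7.01, 5.82 and 5.03 CPM in the double mutant, the strains did not overlap, and its log2 fold change was 1.06 (SE 0.28, edgeR adjusted p = 0.106). DESeq2's Wald test called *cox-6A* at an adjusted p of 0.0217. Without double mutant D7 replicate 3 the mitochondrial median was -0.30, with 8 of 11 genes negative, and without *daf-2(rf)* D7 replicate 3 it was -1.19. With library totals in place of TMM the medians were -0.01 (6 of 11 negative) and 1.25, where that of all genes was 0.81.

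On D1, the medians of the genomes had the opposite signs, again with no gene of either set past the test. Of the mitochondrial genes 11 of 12 had positive values (median log2 fold change 0.60), and of the nuclear genes 21 of 22 had negative ones (median -0.56), while the median of all 6430 genes tested was -0.02. *ND4L*, among the positive genes at 0.13, passed the filter on low counts only through *daf-2(rf)*, where its mean level was higher. Of all genes tested 3.51% were called and 24.9% had an unadjusted p under 0.05. Among the mitochondrial genes 0 of 12 were called (1 at an unadjusted p under 0.05, 0 with DESeq2), and among the nuclear genes 0 of 22 (5 at an unadjusted p under 0.05, 0 with DESeq2). *ND5* had the smallest mitochondrial p, with a log2 fold change of 2.34 (SE 1.04, edgeR adjusted p = 0.197). This value rests on *daf-2(rf)* D1 replicate 2, at 1398 CPM against 117 and 123 CPM in the other replicates. Without that library, the mitochondrial median turned to -0.33, with 9 of 12 genes negative. It was 0.17 without double mutant D1 replicate 1 and 1.57 without double mutant D1 replicate 2.

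The nuclear gene with the smallest p on D1 was *cyc-1* (8022685 to 8024422), with a log2 fold change of -1.23 (SE 0.44, edgeR adjusted p = 0.138). Its libraries at 16.2 to 20.8 CPM in *daf-2(rf)* lay below those at 25.7 to 66.0 CPM in the double mutant. *nuo-2*, *nuo-6* and *lpd-5* were the other nuclear genes without overlap, making 4 of 22 against 32.2% of all genes tested. Complex III had the lowest median, -1.11, followed by complex II at -0.80, complex I at -0.53 and complex V at -0.44. *nuo-4*, a subunit of complex I, was the exception with a positive value of 0.37. Among the RefSeq-matched subunits, 5 of 6 were negative with a median of -1.21, and *cox-4* (13658171 to 13659128), a subunit that surrounds the catalytic core of complex IV, had the smallest p, with a log2 fold change of -1.73 (SE 0.67, edgeR adjusted p = 0.155). Its levels were 64.6, 35.8 and 48.0 CPM in *daf-2(rf)* and 337, 62.9 and 68.4 CPM in the double mutant, so that replicate 1 alone set the double mutant apart. Without that library, *cox-4* had a log2 fold change of -0.40 and *cyc-1* one of -0.63, the nuclear median was -0.11 with 15 of 22 genes negative, and with library totals in place of TMM it was 0.29, where the median of all genes moved to 0.74.

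Between D1 and D7 in *daf-2(rf)*, the medians of both genomes were negative, and no gene of either set passed the test. All 12 mitochondrial genes had negative log2 fold changes (median -1.17), as had 17 of 22 nuclear genes (median -0.33), while the median of all 7337 genes tested was 0.07. Of all genes tested 0.218% were called and 22.2% had an unadjusted p under 0.05, and DESeq2 called 651 of 7337. Among the mitochondrial genes 0 of 12 were called (3 at an unadjusted p under 0.05, 3 with DESeq2), and among the nuclear genes 0 of 22 (2 at an unadjusted p under 0.05, 0 with DESeq2). The smallest mitochondrial p was that of *ND4L*, with 25, 44 and 11 reads on D1 and 9, 11 and 6 reads on D7. Its log2 fold change was -2.89 (SE 0.78, edgeR adjusted p = 0.0994). *ND4L* passed the filter on low counts only through D1, where it is high, so its direction is partly set by the filter. *ND6* and *ND3* followed, with log2 fold changes of -3.33 and -2.21. Together with *ND4L* they were the mitochondrial genes whose days did not overlap, 3 of 12 against 28.3% of all genes tested. Without *daf-2(rf)* D1 replicate 2, the mitochondrial median was 0.03, with 5 of 12 genes negative, and with library totals it was 0.21, where the median of all genes was 1.27.

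Of the nuclear genes in *daf-2(rf)*, *mev-1* (T07C4.7, chromosome III, 10334267 to 10335181), a cytochrome b subunit that anchors complex II, had the smallest p. Its level was 18, 21.3 and 21.3 CPM on D1 and 15.2, 10.7 and 12.2 CPM on D7, without overlap, and its log2 fold change was -0.63 (SE 0.27, edgeR adjusted p = 0.211). Altogether 9 of 22 nuclear genes did not overlap between the days, against 28.3% of all genes tested. Complex II had the lowest median, -0.58, with all 4 genes negative, followed by complex V at -0.38 with all 7 genes negative, whereas complex III lay at -0.16 and complex I at -0.06 with 4 genes on either side. All 6 RefSeq-matched subunits were negative (median -0.45), and *cox-6B* (2786117 to 2786859), a peripheral subunit of complex IV, had the smallest p, with a log2 fold change of -0.79 (SE 0.32, edgeR adjusted p = 0.188). With library totals, the nuclear median was 0.91 and no nuclear gene was negative, so this direction holds only relative to the other genes.

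Between D1 and D7 in the double mutant, 21 of 22 nuclear genes had negative values, with a median log2 fold change of -1.47, and no gene of either set passed the test. Of the mitochondrial genes, 7 of 11 were positive, with a median of 0.56, and all 7541 genes tested had a median of 0.08. Of all genes tested 0.583% were called, and of the nuclear genes 0 of 22. At an unadjusted p under 0.05 stood 20 of 22 nuclear genes, against 29.7% of all genes tested. The days did not overlap at 20 of 22 nuclear genes, against 38.6% of all genes tested. The exceptions were *sdha-1*, the flavoprotein of complex II, which overlapped with a log2 fold change of -1.37, and *nuo-4*, with a value of 0.02. DESeq2 called 11 of the 22 nuclear genes and 1353 of all 7541 genes, and the fit of all 12 libraries called 13 and 979. Of the 6 RefSeq-matched subunits, both called 5.

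The nuclear gene with the smallest p was *atp-5* (C06H2.1, chromosome V, 11122761 to 11123867), subunit d of the ATP synthase stalk. Its level was 94.7, 53.2 and 44.9 CPM on D1 and 25.8, 17.2 and 16.6 CPM on D7, and the log2 fold change was -1.70 (SE 0.44, edgeR adjusted p = 0.0613). For *asg-1*, *atp-4*, *mev-1* and *nuo-6* the edgeR adjusted p ran from 0.0613 to 0.0643. *asg-1*, with 9 to 25 reads on D7, passed the filter on low counts only through D1, where it is high, and the other 21 nuclear genes passed it on both days. The medians by complex were -1.16 in complex I, -1.52 in complex II, -1.56 in complex III and -1.70 in complex V. All 6 RefSeq-matched subunits were lower on D7 without overlap, with a median of -2.34. *cox-6B* had 80.2, 19.5 and 14.2 CPM on D1 and 7.99, 4.58 and 4.36 CPM on D7, with a log2 fold change of -2.75 (SE 0.68, edgeR adjusted p = 0.0601). Without double mutant D1 replicate 1, all 22 nuclear genes were negative with a median of -0.94, and 15 had an unadjusted p under 0.05, against 23.8% of all genes. The value of *cox-6B* was then -1.55. Without double mutant D1 replicate 2, edgeR called 9 nuclear genes, and 635 of all 7555 genes. With library totals, 14 of 22 were negative with a median of -0.18, where the median of all genes was 1.26.

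The mitochondrial genes of the double mutant were not called on D7 against D1 (0 of 11, 2 at an unadjusted p under 0.05, 1 with DESeq2). *ND5* had the smallest p, with 21.6, 191 and 94.8 CPM on D1 and 259, 228 and 1155 CPM on D7 and no overlap. Its log2 fold change was 2.40 (SE 0.87, edgeR adjusted p = 0.111), and DESeq2 gave it an adjusted p of 0.0228. *ND3* was the other gene without overlap, with a log2 fold change of -1.22, so the longest mitochondrial complex I gene and one of the shortest lay on opposite sides of 0. These were 2 of 11 mitochondrial genes, against 38.6% of all genes tested. Without double mutant D7 replicate 3 the mitochondrial median was -0.03, with 7 of 11 genes negative. It was 0.14 without double mutant D1 replicate 1 and 1.58 without double mutant D1 replicate 2.

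**Figure D2:**
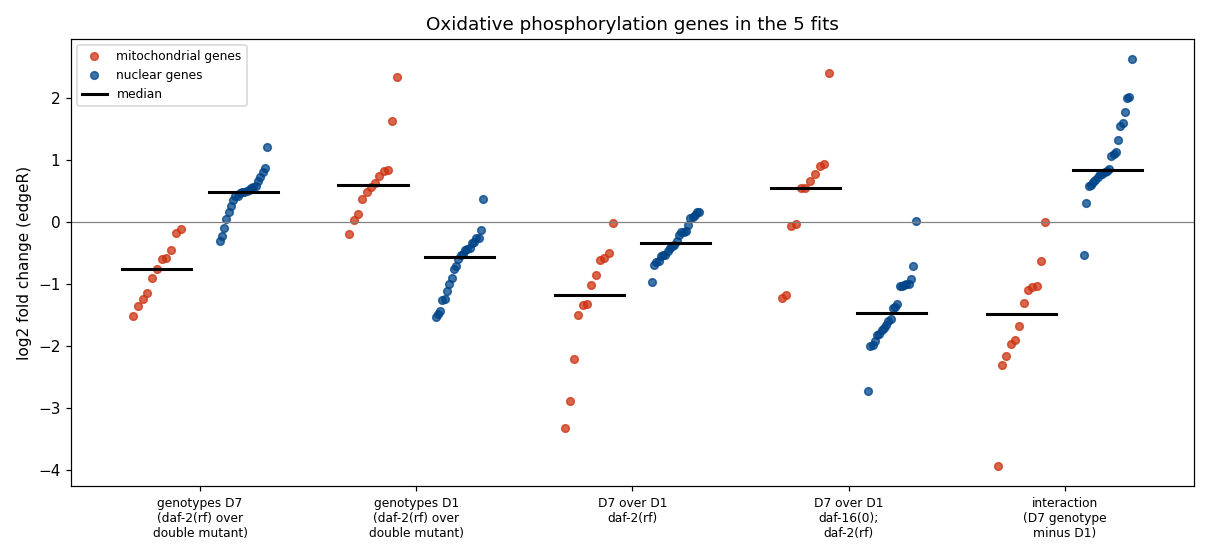
Log2 fold changes from edgeR for the mitochondrial (red) and nuclear (blue) genes in the 4 comparisons and the interaction, 1 point per gene, sorted within each set, with a black bar at the median. The medians of the genomes lie on opposite sides of 0 in all but the comparison of days in *daf-2(rf)*, where both are negative (-1.17 and -0.33), and no point was called.

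The medians of the genomes can also be set against each other. The mitochondrial minus the nuclear median was -1.25 for the strains on D7, 1.16 for the strains on D1, -0.84 for the days in *daf-2(rf)* and 2.03 for the days in the double mutant. The interaction is the strain difference on D7 minus that on D1. For it, all 12 mitochondrial genes were negative (median -1.49) and 21 of 22 nuclear genes positive (median 0.84), a difference of -2.33. Of these, *ND4L*, at -1.05, passed the filter on low counts only through *daf-2(rf)* on D1, where it is high. Its direction is therefore partly set by the filter. With library totals the differences between the medians were -1.25, 0.64, -0.70, 1.62 and -1.87, in the same order. Single libraries moved all of them. Without *daf-2(rf)* D1 replicate 2, the difference for the strains on D1 was 0.16, that for the days in *daf-2(rf)* turned to 0.36 and that for the interaction was -1.29. Without double mutant D1 replicate 1, the values were 0.28 for the strains on D1, 1.08 for the days in the double mutant and -1.60 for the interaction, and without double mutant D1 replicate 2 they were 2.29, 3.33 and -3.60. Without double mutant D7 replicate 3, the difference was -0.61 for the strains on D7 and 1.3 for the days in the double mutant, and without *daf-2(rf)* D1 replicate 1 it was -1.34 for the days in *daf-2(rf)*. The mitochondrial median of the interaction was -0.47 (10 of 12 negative) without *daf-2(rf)* D1 replicate 2, -0.95 without double mutant D7 replicate 3, -1.07 without double mutant D1 replicate 1 and -2.56 without double mutant D1 replicate 2, and the nuclear median was 0.53 without double mutant D1 replicate 1.

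Of 8096 genes tested for the interaction, 0.704% were called, 23.6% had an unadjusted p under 0.05 and DESeq2 called 846, and the median of all was -0.05. Of the mitochondrial genes 0 of 12 were called (1 at an unadjusted p under 0.05, 1 with DESeq2), and of the nuclear genes 0 of 22 (8 at an unadjusted p under 0.05, 2 with DESeq2). *ND5* led the mitochondrial genes with an interaction of -3.93 (SE 1.41, edgeR adjusted p = 0.129). *nuo-6* led the nuclear genes with 2.01 (SE 0.62, edgeR adjusted p = 0.0971). *nuo-6* lay at 7.89 to 26.1 CPM in the double mutant on D1, above the 5.21 to 7.73 CPM of *daf-2(rf)*, and at 3.33 to 4.64 CPM on D7, below the 5.60 to 8.63 CPM of *daf-2(rf)*. Of the RefSeq-matched subunits, *cox-6A* had the smallest p, with 2.28 (SE 0.82, edgeR adjusted p = 0.129). Without double mutant D1 replicate 1, the interaction was 1.31 for *nuo-6* and 0.94 for *cox-6A*.

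Gene length moved with these results. The nuclear genes had a median length of 1181 bases and the mitochondrial genes one of 823 bases, against 1513 for all genes tested. Among all genes tested in the double mutant between the days, those under 1000 bases had a median log2 fold change of -0.77, those from 1000 to under 2000 bases one of -0.01 and those of 2000 bases or more one of 0.55. The nuclear genes of these classes had medians of -1.81 (9 genes), -1.03 (11 genes) and -1.04 (2 genes), below all genes of like length. On D1, short genes were also lower in *daf-2(rf)*, with -0.55 over all genes under 1000 bases and -0.75 over the 9 nuclear genes among them. With each library's trend with length removed, an alternative added after the data were seen, the nuclear median in the double mutant was -1.17 with all 22 genes negative, and 12 had an unadjusted p under 0.05 against 26.0% of all genes. The mitochondrial median was then 0.77. On D1 the nuclear median was then -0.53 with 18 of 22 genes negative.

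**Figure D3:**
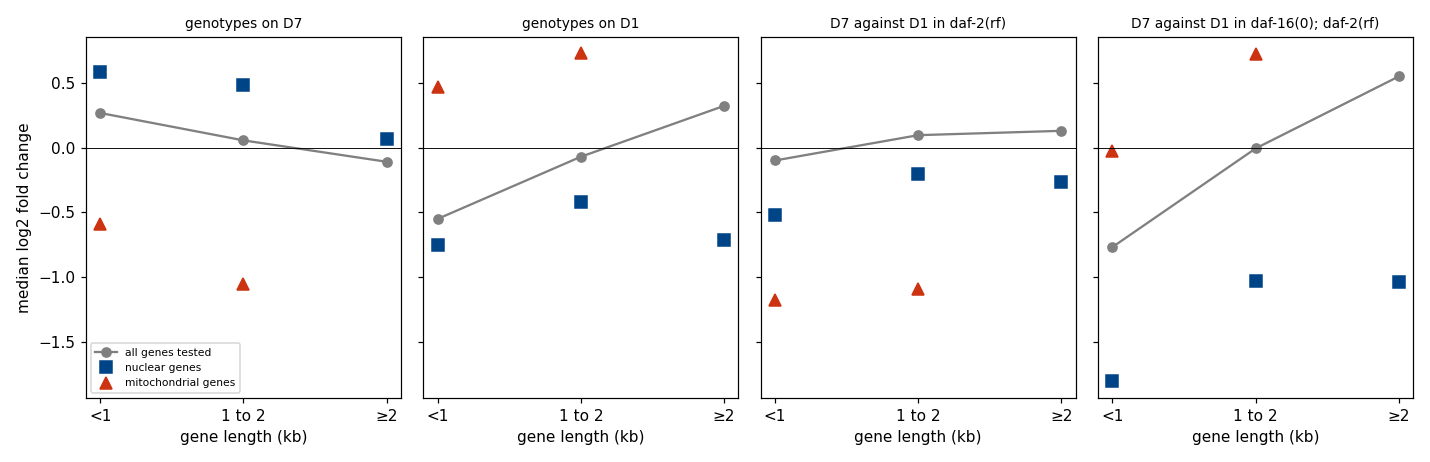
Median log2 fold change by class of gene length (kb) for all genes tested (grey line), the nuclear genes (blue squares) and the mitochondrial genes (red triangles), 1 panel per comparison. In the double mutant between the days, the grey line rises from -0.77 to 0.55 and the nuclear genes lie below it in each class.

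Markers of other cell types also differed between the groups. The summed level of 8 germ line and oocyte markers was 92.8 to 133 CPM in the double mutant on D1 and 21.1 to 26.4 CPM in *daf-2(rf)* on D1, and on D7 it was 24.7 to 31.2 CPM and 4.51 to 45.3 CPM. The 5 neuronal markers summed to 129 to 400 CPM in the double mutant on D1 and to 67.1 to 127 CPM in the other groups, without a marker at 0. Most of that D1 sum came from *snb-1* (63.7 to 253 CPM) and *egl-3* (42.7 to 135 CPM). Only *egl-3* lay above all other groups, which reached 42.2 CPM. *snb-1* overlapped *daf-2(rf)* on D7, at up to 68.7 CPM, and *unc-13*, *rab-3* and *ric-4* overlapped every other group. The 9 intestinal markers summed to 480 to 2031 CPM in the double mutant on D1 and 127 to 1156 CPM on D7, and to 418 to 676 CPM and 23.9 to 57.6 CPM in *daf-2(rf)*. The defining intestinal regulator *elt-2* had at most 16 reads. The 6 muscle markers reached 237 CPM in the double mutant on D1 and at most 195 CPM in any other group. The sperm markers stayed at or below 4.16 CPM and the hypodermal markers at or below 29.2 CPM. The 2 gonadal sheath markers were lower in the double mutant on D1, 0.746 to 7.00 CPM against 9.15 to 16.6 CPM in *daf-2(rf)*. So was the PSG marker *fln-1*, 310 to 797 CPM against 928 to 1043 CPM. *fos-1* (95.9 to 345 and 293 to 449 CPM) and *fkh-6* (383 to 661 and 245 to 421 CPM) overlapped. The nuclear genes of oxidative phosphorylation were highest in the same group, and the part of these cells in that level was not tested.

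Across the 12 libraries, the genes of each genome moved together. The median Pearson correlation of log2(CPM + 1) was 0.83 over the 66 pairs of mitochondrial genes and 0.80 over the 253 pairs of nuclear genes, but -0.48 over the 276 mixed pairs. For deviations from the group means the medians were 0.88, 0.68 and -0.57. These are descriptions over libraries that share depth and scaling. The summed levels of the genomes had r = -0.61 over 12 libraries and -0.22 without double mutant D1 replicate 1, so that most of the opposition rests on that library.

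One nuclear gene kept company with the mitochondrial genes. *nuo-4* (K04G7.4, chromosome III, 7156875 to 7158812), an accessory subunit of complex I, had 30.0, 41.0 and 30.6 CPM in D1 libraries of *daf-2(rf)* and 12.7, 36.2 and 25.6 in those of the double mutant, and on D7 26.9, 21.7 and 22.8 (*daf-2(rf)*) and 27.2, 23.8 and 25.7 (double mutant). Its correlation with the summed mitochondrial level was 0.86, and 0.65 without double mutant D1 replicate 1, where it had 34 reads. Its correlation with the other nuclear genes was -0.27. The other 22 nuclear genes all had negative correlations with the mitochondrial level, from -0.30 for *nuo-3* to -0.86 for *isp-1*, and positive ones with the other nuclear genes, from 0.61 for *sdha-1* to 0.99 for *atp-5*. Without that library *nuo-3* turned positive too, at 0.17. The other 21 stayed negative with the mitochondrial level but were weaker, from -0.01 for *asg-1* to -0.65 for *isp-1*. Over all 12 libraries, *atp-1* of the RefSeq-matched subunits lay between, with 0.19 and 0.57. *nuo-4* was singled out after its values were seen.

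**Figure D4:**
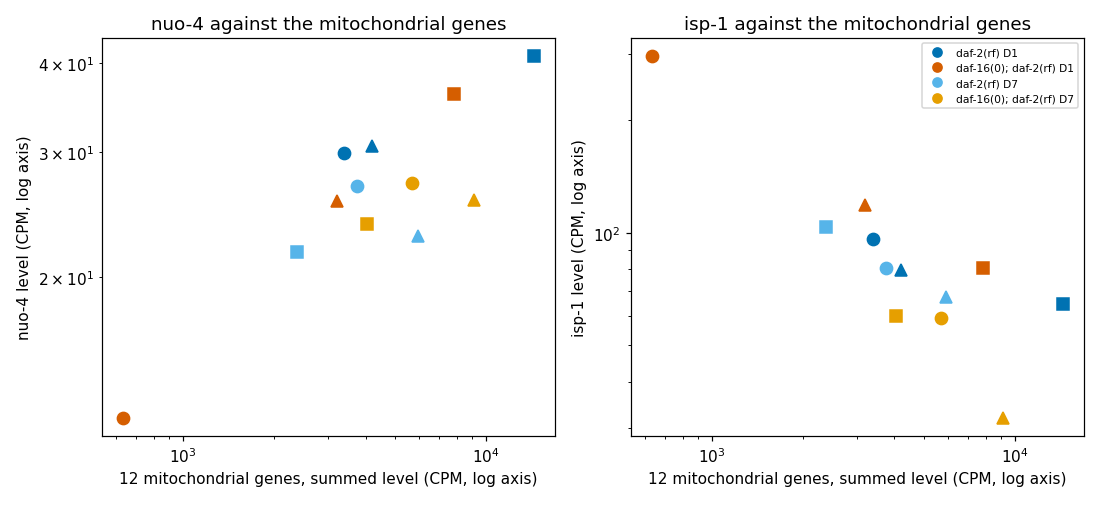
Level of *nuo-4* (left) and *isp-1* (right) against the summed level of the 12 mitochondrial genes, all in CPM on log axes, 1 symbol per library, coloured by group and shaped by replicate number as in the plot of levels by group. *nuo-4* rises with the mitochondrial level (r = 0.86) and *isp-1* falls (r = -0.86), and double mutant D1 replicate 1 is at the far left of both. Without that library, r is 0.65 for *nuo-4* and -0.65 for *isp-1*.

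Other mitochondrial gene lists were followed in the same fits. Among the 19 other subunits of the complexes and their inhibitors, 15 were tested on D1 and 2 were called between the strains, against 3.51% of all genes tested. *mai-2* (B0546.1), a homolog of the inhibitor of ATP synthase, had 82, 48 and 47 reads in *daf-2(rf)* and 0 in each double mutant library, so its *daf-2(rf)* level was at least 9.42-fold higher, with 3 reads set per library where there were none (edgeR, Benjamini-Hochberg adjusted p = 0.0202). On D7 it had 47, 158 and 26 reads against 0, at least 15.6-fold higher, and was not called (edgeR adjusted p = 0.0527). *ucr-2.3* (T24C4.1), a core protein of complex III, had 0.311 to 1.07 CPM in *daf-2(rf)* and 3.68 to 6.34 CPM in the double mutant on D1, a log2 fold change of -3.23 (SE 0.59, edgeR adjusted p = 0.0245). With 9, 3 and 4 reads in *daf-2(rf)*, it passed the filter only through the double mutant, where it is high, and *mai-2* only through *daf-2(rf)*. In the double mutant between the days, 14 of 15 genes of this list were lower on D7, with a median of -1.64, none of them called and 11 at an unadjusted p under 0.05, against 29.7% of all genes tested.

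Of the genes for chaperones and the mitochondrial stress response, 1 of 8 tested on D1 was called, against 3.51% of all genes tested. *hsp-6* (C37H5.8), the mitochondrial Hsp70 chaperone, had 8.39 to 10.6 CPM in *daf-2(rf)* and 30.4 to 53.5 CPM in the double mutant on D1, a log2 fold change of -2.03 (SE 0.39, edgeR adjusted p = 0.0264). On D7 it had 16.8 to 31.0 CPM and 14.2 to 25.3 CPM, which overlapped. Of the enzymes of the citric acid cycle, 16 of 17 had negative values between the days in the double mutant (median -0.83) and 15 of 16 between the strains on D1 (median -0.38), and none was called. Of the genes for maintenance and expression of mitochondrial DNA, 3 of 4 tested were positive in the double mutant between the days (median 0.63), and all 5 tested were positive in *daf-2(rf)* (median 0.53). Assembly factors had medians of -0.65 in the double mutant and 0.73 in *daf-2(rf)*, genes of ubiquinone synthesis -0.20 and -0.01, and genes of import and carriers -1.16 and -0.12. None of these lists had a called gene in any fit.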

How the data were processed

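RNA-seq counts of 12 libraries were used. Per the labels and the study's methods, the authors aligned paired-end reads to WBcel235 with HISAT2 2.0.5, counted reads per gene with featureCounts 1.5.0-p3 and deposited these counts without normalization, with an FPKM value beside each that the authors derived from count and gene length. The strand setting, the annotation release and the handling of reads that map to several places are not given in the sources used here, and such handling can change the counts of genes with copies.

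Genes were tested with edgeR 4.0.16 under R 4.3.3, using TMM factors, the quasi-likelihood F test and Benjamini-Hochberg adjustment over the whole table. Each comparison was a fit of its 6 libraries, and the interaction one of all 12, called at an adjusted p under 0.05 with no fold change threshold. A gene entered a fit if some group had over 10 reads for it in each of its 3 replicates. Standard errors were back-calculated from the F statistic. Where no read was found, 3 reads per library served as the limit, which covers counting error only. Replicates are the biological replicates of the labels. Alternatives were other scalings (DESeq2 size factors, upper quartile, library totals, nuclear genes only, the nuclear members), the Wald test of DESeq2 1.42.0, limma 3.58.1 on log2(FPKM + 1) and on log2(FPKM + 0.1), other filters, a replicate block, 1 fit of all libraries, no fold change threshold and leaving out each library. The pairwise edgeR fits were tested on simulated counts with the same dispersion for all genes and no outlying library. That test does not cover the spread seen here between replicates.

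Members and gene lists were chosen with earlier results of these data known. Every member may be named. Full statistics are given for the member of each genome with the smallest p, values per library for the mitochondrial members and for the highest and lowest nuclear member of each complex, and genes of other lists are named where called.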

Additional observations from a re-analysis of the deposited data

Results flagged for a closer look

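*nuo-6*, an accessory subunit of complex I, was flagged because all its *daf-2(rf)* libraries lay below all double mutant libraries on D1 and above them on D7. Of all genes tested, the strains did not overlap at 32.2% on D1 and at 25.5% on D7. The share of all genes that did so on both days in opposite order was not determined. The log2 fold change of *nuo-6* between the strains was -1.26 on D1 and 0.82 on D7. Their difference of 2.01 was tested as the interaction of strain and day, on the same values by which the gene was flagged. It did not pass the threshold in edgeR (Benjamini-Hochberg adjusted p = 0.0971) and did in DESeq2 (adjusted p = 0.0344). Double mutant D1 replicate 1, with 26.1 CPM against 9.57 and 7.89 CPM in the other replicates, is the highest value, and without it the interaction was 1.31 (edgeR adjusted p = 0.176).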

How the results depend on the processing

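None of the 12 mitochondrial and 23 nuclear genes was called in the main results, and 192 of 208 counts of their calls under the alternatives were likewise 0. Without a filter on low counts, 1 mitochondrial gene was called between the strains on D7 (1025 of all 21854 genes) and 1 on D1 (861 of 18480). Between the days, 3 were called in *daf-2(rf)* (863 of 19976). In the double mutant 1 was called, with 6 nuclear and 5 RefSeq-matched genes (1394 of 20830). For the interaction, 2 mitochondrial genes and 1 RefSeq-matched gene were called (703 of 22994). Library totals gave 1 mitochondrial gene between the days in *daf-2(rf)* (1427 of all 7337 genes) and 1 in the double mutant (2327 of 7541). Scaling to the nuclear members gave 1 in the double mutant (2114 of 7541). DESeq2's Wald test called 3 mitochondrial genes between the days in *daf-2(rf)* (651 of all 7337 genes), 1 mitochondrial, 11 nuclear and 5 RefSeq-matched genes in the double mutant (1353 of 7541), and 1 mitochondrial and 2 nuclear genes for the interaction (846 of 8096). It also called 1 RefSeq-matched gene between the strains on D7 (702 of 7933). A single fit of all 12 libraries called 13 nuclear and 5 RefSeq-matched genes in the double mutant (979 of 7541). Leaving out 1 library at a time gave 0 to 9 nuclear genes there, with 3 RefSeq-matched genes beside the 9, and a mitochondrial minus nuclear difference of -1.34 to 0.36 between the days in *daf-2(rf)*. With library totals, *mev-1* and *cox-6B* reversed to 0.52 and 0.31 between those days. Without *COX1*, the log2 ratio of the genomes in the double mutant on D7 was 2.15 in place of 2.98. *COX1* held 36.4% to 48.5% of the mitochondrial reads there, and leaving it out lowers the ratio of every library by construction. The cause of the other shifts was not tested.

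Of the values of single genes, 289 of 311 kept direction and side of the threshold, 20 passed it under an alternative and 2 reversed. Over all genes and alternatives other than leaving out a library, calls ran from 0 to 1025 between the strains on D7 (91 in the main result), 70 to 861 on D1 (226), 15 to 1427 between the days in *daf-2(rf)* (16), 2 to 2327 in the double mutant (44) and 0 to 846 for the interaction (57). On average replicate numbers showed no pairing: the mean correlation of deviations was -0.03 for the same number and 0.01 for different numbers. A mean over all groups cannot exclude pairing within single comparisons. A replicate block gave 0, 478, 15, 67 and 17 called genes in the same order, and 0 among the mitochondrial and 0 among the nuclear genes. Depth limits *ND4L*, *asg-1* and *hpo-18*, which fell below 10 reads in some libraries.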
